A study of Mus musculus with 12 samples.

Results

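The genes described here are 10 members of the endo-siRNA and piRNA pathways, Dicer1, Ago2, Ago3, Dgcr8, Drosha, Piwil2, Mael, Ddx4, Pld6 and Tdrkh, of 55573 mouse genes counted in each library. They were chosen by symbol, and each symbol matched 1 Ensembl gene on GRCm38. The poly(A) RNA of single germinal vesicle (GV) oocytes, fully grown oocytes whose nuclear envelope is still intact, was sequenced in 12 libraries, 2 in each of 6 groups. Whole oocytes were amplified for 10, 14 or 18 PCR cycles, and libraries were also made from 1/2, 1/4 and 1/8 of an oocyte, for which the methods give 18 cycles and the sample labels give none. These groups ask how far the number of cycles and the amount of input RNA move the measured abundance of a gene.

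All oocytes came from 1 healthy B6D2F1 female at 12 weeks of age, so the p-values below measure the spread between libraries of 1 animal. The fractions were dilutions of lysed oocytes and not cut cells, and the methods count 2 oocytes behind the 6 fraction libraries, so fractions of different size share oocytes, while the labels do not tell which. The whole libraries came from other oocytes, so input and oocyte differ together in each comparison of fractions with whole oocytes. The tests treat the fraction libraries as independent. ERCC molecules, synthetic RNAs of known amount, were added to each sample after dilution. Gene counts were 11597144 and 9189672 in the whole oocytes at 10 cycles, 12349577 and 13806199 at 14 cycles, against 3017069 and 1706478 at 18 cycles. The 1/2 fractions had 4024670 and 3598549, the 1/4 fractions 4027907 and 5049518, and the 1/8 fractions 11404262 and 1702062. Levels are given as counts scaled to 1e6 gene counts (CPM), replicate 1 first.

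Dicer1 cuts long double-stranded RNA into endo-siRNAs and hairpin precursors into miRNAs, and Ago2 is the Argonaute that can cleave the RNA its small RNA pairs with. In mouse oocytes endo-siRNAs are abundant and needed for meiosis, while miRNA activity is low, and an oocyte form of Dicer1 starts from a retrotransposon inside the gene. piRNAs are bound by PIWI proteins such as Piwil2 and silence transposons in germ cells. Male mice need this pathway for fertility, and female mice can largely do without it.

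The libraries carried the transcripts that define an oocyte. All 12 oocyte markers had counts in every library, and their summed level was 25998 and 23536 CPM at 10 cycles, 25866 and 27378 at 14 cycles, against 7766 and 6415 at 18 cycles. It was 9790 and 9464 CPM in the 1/2 fractions, 13867 and 15048 in the 1/4 fractions, and 21011 and 21410 in the 1/8 fractions. Gdf9, a growth factor secreted by the oocyte, was the most abundant of them per length in the mean over the 12 libraries. The group mean of Zp3 was above that of Gdf9 in whole oocytes at 18 cycles (854 against 784 CPM per kb). It was also above in the 1/4 fractions (1984 against 1634). In replicate 2 of the whole oocytes at 18 cycles, however, Zp3 (719) was below Gdf9 (777). The sum was thus lower in both whole oocytes at 18 cycles than in any other library. Relative to the other genes, edgeR called 10 of these 12 markers lower from 10 to 18 cycles (10.8% of all genes) and 11 from 14 to 18 cycles (10.7%), and 8 higher in the 1/8 fractions than in whole oocytes at 18 cycles (7.06%). On the ERCC scale 10 of the 12 markers had a change above 0 in both cycle comparisons, as with Zp2 (-1.91, and 0.45 with ERCC size factors, from 10 to 18 cycles). Of these, 3 and 2 were called higher by edgeR, beside 47.6% and 47.9% of genes called. In the 1/8 fractions all 12 were called lower on that scale than in whole oocytes at 18 cycles (median -3.83), beside 87.5% of genes.

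Markers of granulosa or cumulus cells, which surround the oocyte, summed to 200 and 85.7 CPM at 10 cycles, 109 and 174 at 14 cycles, against 74.9 and 28.1 at 18 cycles. In the 1/2, 1/4 and 1/8 fractions the sums were 34.5 and 30.8, 55.6 and 59.2, and 81.7 and 72.3 CPM. Cyp19a1, the aromatase, was the most abundant of these 12 genes per length in the mean over the 12 libraries (5.60 CPM per kb), but Inha (5.28) was above it in the means of whole oocytes at 10, 14 and 18 cycles. Fshr, Foxl2, Has2 and Ptx3 had means under 1 CPM. Inha, an inhibin subunit, reached 34.1 CPM in 1 oocyte at 10 cycles and 0.326 in the other, 3.64 and 31.9 at 14 cycles, against 17.2 and 0.586 at 18 cycles. Cyp11a1, Amh, Inhbb and Fst were higher in the same 3 of these 6 oocytes, while Cyp19a1 had 27.5 to 46.1 CPM at 10 and 14 cycles against 5.97 and 7.62 at 18 cycles, and Nr5a2 and Kitl were also lower in both oocytes at 18 cycles. These genes were chosen after their values were seen. Relative to the other genes 2 of the 10 granulosa markers tested were called lower from 10 to 18 cycles, 3 from 14 to 18 cycles, and 1 of 7 was called higher in the 1/8 fractions than in whole oocytes at 18 cycles, where 5 of the 7 had a change below 0 (median -1.52), beside the same shares of all genes. On the ERCC scale edgeR called 0 lower in the first 2 comparisons, and 10 and 9 of 10 had a change above 0, with 0 and 1 called higher. In the 1/8 fractions all 7 were called lower on that scale (median -6.60), beside 87.5% of all genes. Of the 5 blood markers, Hbb-bt, Hba-a1 and Hba-a2 had no count in any library. The part of other cells in the values below was not tested.

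Levels of different members can be compared only per length, here as CPM per kb of exon sequence over the 12 libraries. Mael (32.0 ± 10.6, SD) and Dicer1 (27.8 ± 14.3) came first, followed by Ddx4 (13.4 ± 5.84), Pld6 (11.8 ± 7.40), Tdrkh (11.3 ± 2.57), Ago3 (9.32 ± 1.47) and Drosha (8.93 ± 1.62). Ago2 (2.83 ± 1.14), Piwil2 (0.685 ± 0.668) and Dgcr8 (0.427 ± 0.0973) were lowest. The order of the first 2 differed between groups: Dicer1 was above Mael at 10 cycles (means of 46.9 and 21.8) and 14 cycles (42.6 and 26.0), and below it in whole oocytes at 18 cycles (13.6 and 43.9). Pld6 was above Tdrkh, and Piwil2 above Dgcr8, in 5 of 12 libraries. Of the neighbours in the order over all libraries only Drosha and Ago2 had ranges that did not overlap, and Drosha was above Ago2 in 12 of 12 libraries. Dicer1 was above Ddx4 in 11 of 12 and below Mael in 7. With the length of the longest transcript in place of all exons, a choice made after seeing the data, Dicer1 had 47.2 CPM per kb and came before Mael.

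**Figure D1:**
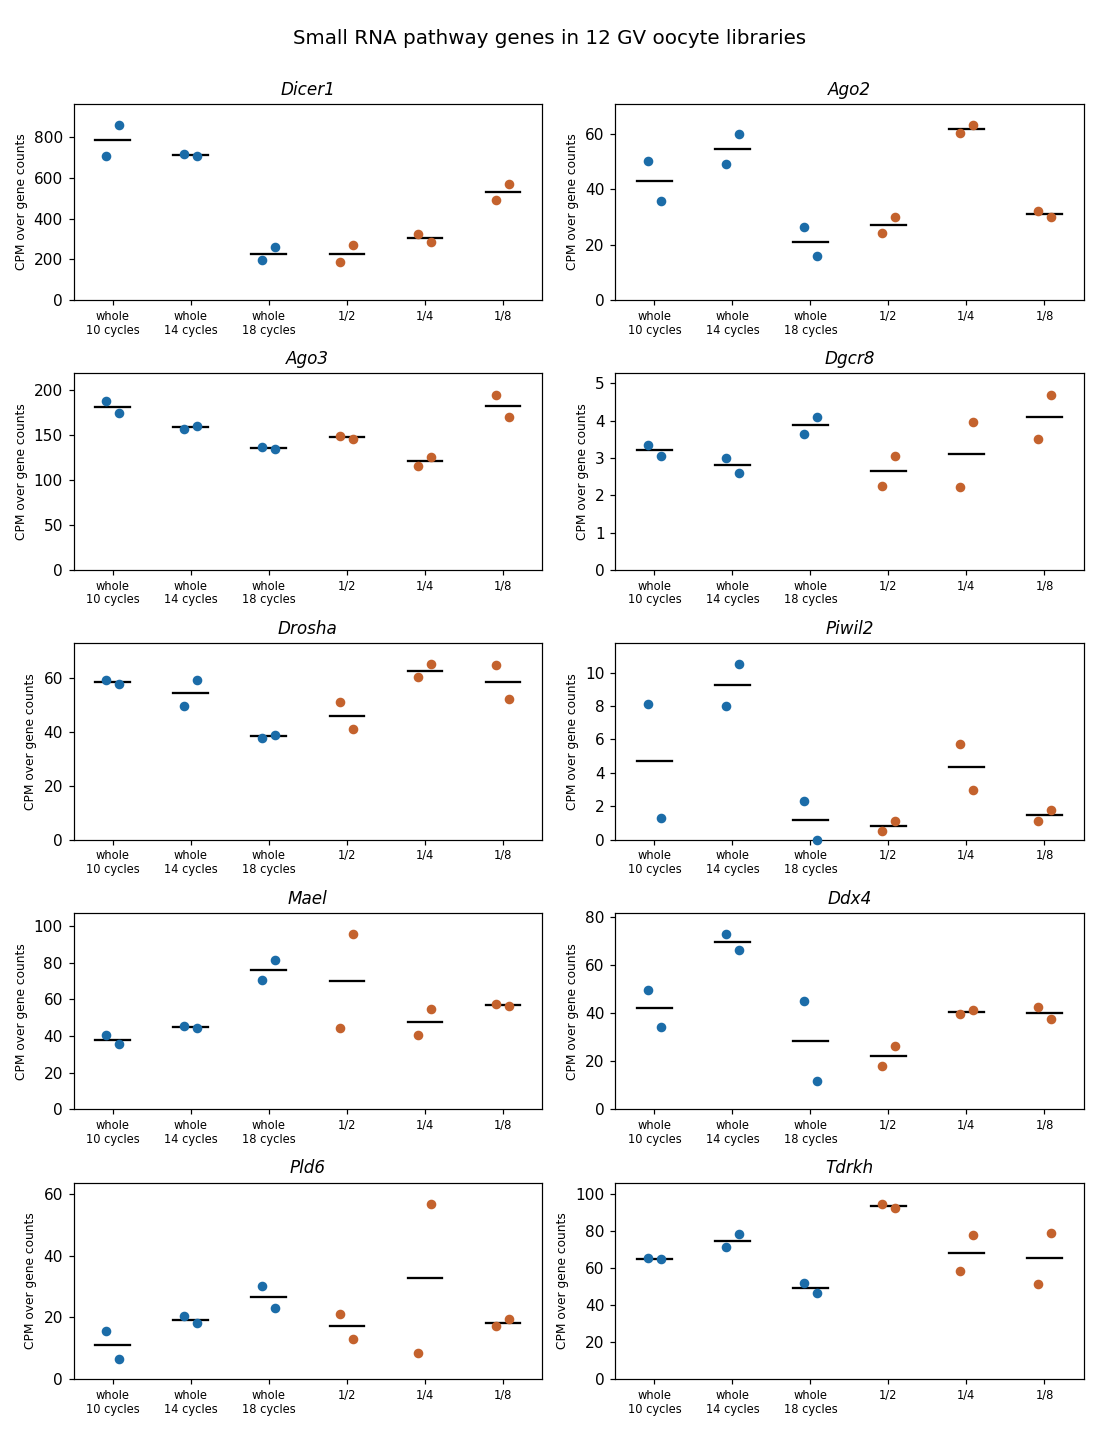
Level of each member in CPM (y axis, linear, from 0, scaled per gene) in the 12 libraries by group (x axis), with whole oocytes in blue, fractions in orange and a black line at the mean of 2 libraries. Dicer1 lies between 708 and 862 CPM at 10 and 14 cycles and between 197 and 260 CPM in whole oocytes at 18 cycles.

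Dicer1 (chromosome 12, 104687742 to 104751952, minus strand) had 709 and 862 CPM in whole oocytes at 10 cycles, 719 and 708 at 14 cycles, against 197 and 260 at 18 cycles. The fractions had 187 and 271 CPM for 1/2, 324 and 286 for 1/4, and 490 and 573 for 1/8. The whole oocytes at 18 cycles did not overlap those at 10 or 14 cycles, and the 1/8 fractions lay between them. Counted reads do not separate the oocyte form of Dicer1 from the others.

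Relative to the other genes, Dicer1 was lower at 18 than at 10 cycles, with a log2 fold change of -1.51 (SE 0.24, adjusted p = 8.83e-04) in the quasi-likelihood test of edgeR, adjusted by Benjamini-Hochberg over all genes tested, where an adjusted p under 0.01 is a call. Against 14 cycles the change was -1.33 (SE 0.24, adjusted p = 0.00172 in the same edgeR test). With ERCC size factors, which keep the shift of all genes together, the same changes were 0.64 and 0.86, below the medians of all genes tested at 1.96 and 1.97. Without replicate 2 at 10 cycles the first was -1.32 (edgeR adjusted p = 0.0143), and without replicate 1 or 2 at 14 cycles the second was -1.30 or -1.35 (edgeR adjusted p = 0.0150 or 0.0133). With every library and a scaling on genes, both calls held in 7 of 7 other settings, with adjusted p-values (edgeR or DESeq2) up to 5.19e-04 and 9.83e-04. For these cycle comparisons, here and for the members below, the other settings include 1 chosen after seeing the data. It matched libraries by replicate number, with the numbers at 14 cycles swapped.

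Between the 1/8 fractions and whole oocytes at 18 cycles Dicer1 differed, relative to the other genes, by a log2 difference of 1.01 (SE 0.29), which missed the threshold of the same edgeR test (adjusted p = 0.0120), and by -3.89 on the ERCC scale, where the median of all genes was -4.92. The difference from the 1/2 fractions, again relative to the other genes, was 1.06 (SE 0.29, adjusted p = 0.0167, edgeR). That from whole oocytes at 10 cycles was -0.51 (SE 0.25, adjusted p = 0.399, edgeR). On the ERCC scale they were -1.88 and -3.31 (edgeR adjusted p = 2.34e-04 and 1.49e-07), beside medians of all genes at -2.91 and -2.82. The difference from whole oocytes at 18 cycles was called in 6 of 6 other settings that kept every library and a scaling on genes (adjusted p from 0.00240 to 0.00749, edgeR or DESeq2). That from the 1/2 fractions was called in 5 of 6 (0.00212 to 0.0131). With 1 library left out, each was called in 0 of 8 fits, with edgeR adjusted p-values from 0.0117 to 0.139 and from 0.0120 to 0.178.

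Ago2 (chromosome 15, 73095844 to 73184935) had 50.3 and 35.9 CPM at 10 cycles, 49.1 and 59.8 at 14 cycles, against 26.2 and 15.8 at 18 cycles. The 1/2, 1/4 and 1/8 fractions had 24.3 and 30.0, 60.3 and 63.2, and 32.1 and 30.0 CPM. Its 1/4 fractions were thus the highest of all libraries and its whole oocytes at 18 cycles included the lowest. Relative to the other genes no comparison of Ago2 passed the threshold. The changes were -1.06 (SE 0.28, adjusted p = 0.0140, edgeR) for 18 versus 14 cycles and 1.41 (SE 0.36, adjusted p = 0.0526, edgeR) for 1/4 versus whole oocytes at 18 cycles. In 5 of 7 other settings that kept every library and a scaling on genes, the first of these was called (adjusted p from 0.00297 to 0.0111, edgeR or DESeq2), and the second in 1 of 6 (0.00840 to 0.0562). The 5 include the setting chosen after seeing the data. Ago2 shares 219 bases of exon with Chrac1 on the other strand, and the library kit does not mark strand, so reads from that stretch are uncertain.

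Ago3, an Argonaute that binds miRNAs, stayed in a narrow range of CPM. It had 188 and 175 CPM at 10 cycles, 157 and 160 at 14 cycles, 137 and 134 at 18 cycles, and between 116 and 195 in the fractions. Its log2 change relative to the other genes was -0.16 (SE 0.18) for 18 versus 10 cycles and 0.23 (SE 0.27) for 1/8 versus whole oocytes at 18 cycles. Neither passed the test. With ERCC size factors the changes were 2.08 and -4.72, beside medians of all genes at 1.96 and -4.92. Both were then called (edgeR adjusted p = 1.44e-04 and 1.16e-11).

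Drosha and Dgcr8 form the Microprocessor, which trims miRNA primary transcripts in the nucleus. Drosha had 59.2 and 57.8 CPM at 10 cycles, 49.6 and 59.2 at 14 cycles, 37.8 and 38.7 at 18 cycles, and 41.1 to 65.0 in the fractions. Dgcr8 was counted 7 to 40 times per library, at 2.23 to 4.70 CPM, and the exact Poisson 95% interval of its lowest count ran from 1.65 to 8.45 CPM. Such intervals cover counting error only. Its change from 10 to 18 cycles was 0.52 (SE 0.57, edgeR adjusted p = 0.494) relative to the other genes, and 2.76 (edgeR adjusted p = 0.00266) on the ERCC scale, where the median of all genes was 1.96. Both genes contain annotated miRNA hairpins in their exons, and Dgcr8 shares a further 825 bases with Trmt2a on the other strand and 327 with Gm49776, so its counts are uncertain.

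Piwil2, the PIWI protein of the list, had 94 and 12 counts at 10 cycles, 99 and 145 at 14 cycles, against 7 and 0 at 18 cycles. In CPM these were 8.11 and 1.31, 8.02 and 10.5, and 2.32 and 0, and 3 counts, the one-sided 95% limit that a count of 0 allows, would be 1.76 CPM in the last library. The fractions had 2 to 23 counts, at 0.497 to 5.71 CPM. The replicates at 10 cycles lay apart by more than their counting intervals of 6.55 to 9.92 and 0.675 to 2.28 CPM. Relative to the other genes no comparison of Piwil2 passed the test with edgeR as described. For 18 versus 14 cycles it was called in 2 of 6 other settings with every library and a scaling on genes (adjusted p from 0.00186 to 0.0698, edgeR or DESeq2). These were the setting without a filter and the one chosen after seeing the data.

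Mael, a protein of the germ cell granules in which piRNAs are made, went against Dicer1 across cycle numbers. It had 40.3 and 35.4 CPM at 10 cycles, 45.5 and 44.6 at 14 cycles, against 70.6 and 81.5 at 18 cycles. The fractions had 44.2 and 95.6 CPM for 1/2, 40.7 and 54.5 for 1/4, and 57.3 and 56.4 for 1/8. Whole oocytes at 18 cycles lay above all other whole oocytes, and the replicates of the 1/2 fraction lay further apart than the means at 10 and 18 cycles.

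Mael rose relative to the other genes by a log2 fold change of 1.27 (SE 0.22, adjusted p = 0.00148) from 10 to 18 cycles and 1.05 (SE 0.22, adjusted p = 0.00408) from 14 to 18 cycles in the quasi-likelihood test of edgeR (Benjamini-Hochberg). With ERCC size factors the changes were 3.49 and 3.28, above the medians of all genes. The first call was lost without replicate 1 or 2 at 10 cycles (changes of 1.33 and 1.22, edgeR adjusted p = 0.0134 and 0.0193), and the second without replicate 1 or 2 at 14 cycles (1.09 and 1.04, edgeR adjusted p = 0.0427 and 0.0503). Both held in 7 of 7 other settings with every library and a scaling on genes (adjusted p up to 0.00242 and 0.00908, edgeR or DESeq2). Both comparisons use the same whole oocytes at 18 cycles, as do those of the fractions with whole oocytes.

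Ddx4, the germ cell RNA helicase also called VASA, had 49.8 and 34.1 CPM at 10 cycles, 72.9 and 66.1 at 14 cycles, against 45.1 and 11.7 at 18 cycles. The fractions had 17.9 and 26.4 CPM for 1/2, 39.7 and 41.4 for 1/4, and 42.5 and 37.6 for 1/8. Its replicates at 18 cycles lay further apart than those of any other group. The largest of its differences relative to the other genes, -0.96 (SE 0.41) for 18 versus 14 cycles, did not pass (edgeR adjusted p = 0.0899). It was called in 1 of 7 other settings with every library and a scaling on genes, the one without a filter (adjusted p from 0.00389 to 0.0732, edgeR or DESeq2). Without replicate 1 at 18 cycles, the higher of the 2, it was called too (edgeR adjusted p = 0.00322).

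Pld6, a mitochondrial protein needed to form the ends of piRNAs, had 15.5 and 6.53 CPM at 10 cycles, 20.4 and 18.0 at 14 cycles, against 30.2 and 22.9 at 18 cycles. Its fractions ranged from 8.44 to 56.8 CPM, and those values were the 2 replicates of the 1/4 fraction. With ERCC size factors its change from 10 to 18 cycles was 3.88 (edgeR adjusted p = 1.84e-06), beside a median of all genes at 1.96. Relative to the other genes the change was 1.54 (SE 0.39), just outside the threshold (edgeR adjusted p = 0.0116). The latter was called in 4 of 7 other settings with every library and a scaling on genes, including in the one chosen after seeing the data (3.07e-04 to 0.0362, edgeR or DESeq2). Without replicate 1 at 10 cycles it was 2.25 (edgeR adjusted p = 0.00689), and without replicate 2 it was 1.08 (edgeR adjusted p = 0.0603).

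Tdrkh, a Tudor protein that ties PIWI proteins to mitochondria, had 65.4 and 65.0 CPM at 10 cycles, 71.2 and 78.4 at 14 cycles, against 52.0 and 46.3 at 18 cycles. Its 1/2 fractions, with 94.9 and 92.3 CPM, were the highest, and the 1/4 and 1/8 fractions had 58.6 and 77.8 and 51.5 and 79.3 CPM. The 1/2 fractions differed from whole oocytes at 18 cycles, relative to the other genes, by 0.89 (SE 0.32), with an edgeR adjusted p of 0.200. With ERCC size factors the difference was -1.09. Tdrkh shares 2255 bases of exon with Oaz3 on the other strand, so its counts are uncertain.

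All 10 members passed the filter on low counts in each fit. From 10 to 18 cycles 2 of 10 were called, beside 23.1% of 17532 genes: 1 lower (10.8% of genes) and 1 higher (12.3%). From 14 to 18 cycles it was again 2 of 10, beside 23.2%, with 1 lower (10.7%) and 1 higher (12.5%). These shares of members called, relative to the other genes, are near those of all genes. The median log2 change of the members was -0.21 and -0.26, beside -0.29 and -0.29 for all genes. On the ERCC scale the calls among all genes were 0 lower and 8348 higher from 10 to 18 cycles, and 2 lower and 8398 higher from 14 to 18. On that scale 8 and 6 of 10 members were called, all higher, beside 47.6% and 47.9% of genes. The counts of members called are not a result about the pathway.

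Between 10 and 14 cycles edgeR called 0 members and 0% of genes. At an unadjusted p under 0.05 there were 0 members and 513 genes, and DESeq2 called 0 members and 2 genes. The comparison of 1/8 fractions with whole oocytes at 10 cycles, in which cycle number, input and oocyte differ together, also gave 0 members and 0% of 18041 genes with edgeR, 1 member and 2278 genes at an unadjusted p under 0.05, and 0 members and 44 genes with DESeq2.

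Against whole oocytes at 18 cycles edgeR called 0 members in the 1/2 fractions (0.122% of 14788 genes), 0 in the 1/4 fractions (0.460%) and 0 in the 1/8 fractions (15.7%, with 8.69% lower and 7.06% higher). At an unadjusted p under 0.05 there were 1, 2 and 1 members, beside 1943, 2331 and 5804 genes, and DESeq2 called 0, 1 and 1 members, beside 152, 241 and 2838 genes. The 1/8 against the 1/2 fractions gave 0 members (5.94% of genes), 2 at an unadjusted p under 0.05 (4285 genes) and 1 with DESeq2 (1448 genes). The members' medians were -0.11, 0.30 and 0.21 against whole oocytes, beside -0.01, 0.05 and 0.03 for all genes.

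**Figure D2:**
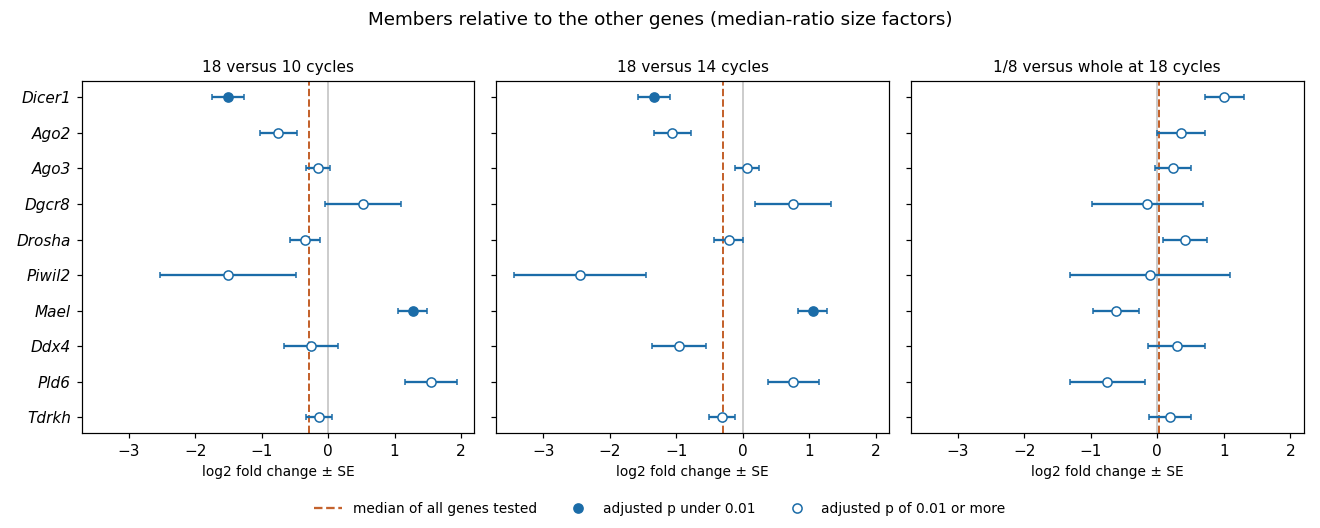
Log2 fold change of each member (x axis, points with SE bars) relative to the other genes in 3 comparisons, with filled points for an adjusted p under 0.01 and a dashed line at the median of all genes tested. Dicer1 (-1.51 and -1.33) and Mael (1.27 and 1.05) are the filled points in the cycle comparisons, and no point is filled for the 1/8 fractions.

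When the ERCC molecules set the scale, the fitted levels of all 10 members were lower in each fraction than in whole oocytes at 18 cycles. Their median log2 change was -2.10 in the 1/2 fractions, -2.48 in the 1/4 fractions and -4.80 in the 1/8 fractions. The medians of all genes tested were -2.00, -2.69 and -4.92. On this scale edgeR called 7, 8 and 10 of 10 members lower, beside 52.0%, 69.7% and 87.5% of genes. Dicer1 changed by -2.01 (SE 0.46), -2.38 (SE 0.47) and -3.89 (SE 0.50), and Mael by -2.20 (SE 0.49), -3.54 (SE 0.52) and -5.54 (SE 0.57). Whole oocytes at 18 cycles had 1611 and 1474 ERCC counts, against 35852 and 25528 at 10 cycles, and on the ERCC scale 8 of 10 members were called higher at 18 than at 10 cycles, beside 47.6% of genes. With whole oocytes at 10 cycles as the reference the members' medians were 0.10, -0.50 and -2.73 for the 1/2, 1/4 and 1/8 fractions. Without replicate 1 of the whole oocytes at 18 cycles the median for the 1/2 fractions was -1.33.

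**Figure D3:**
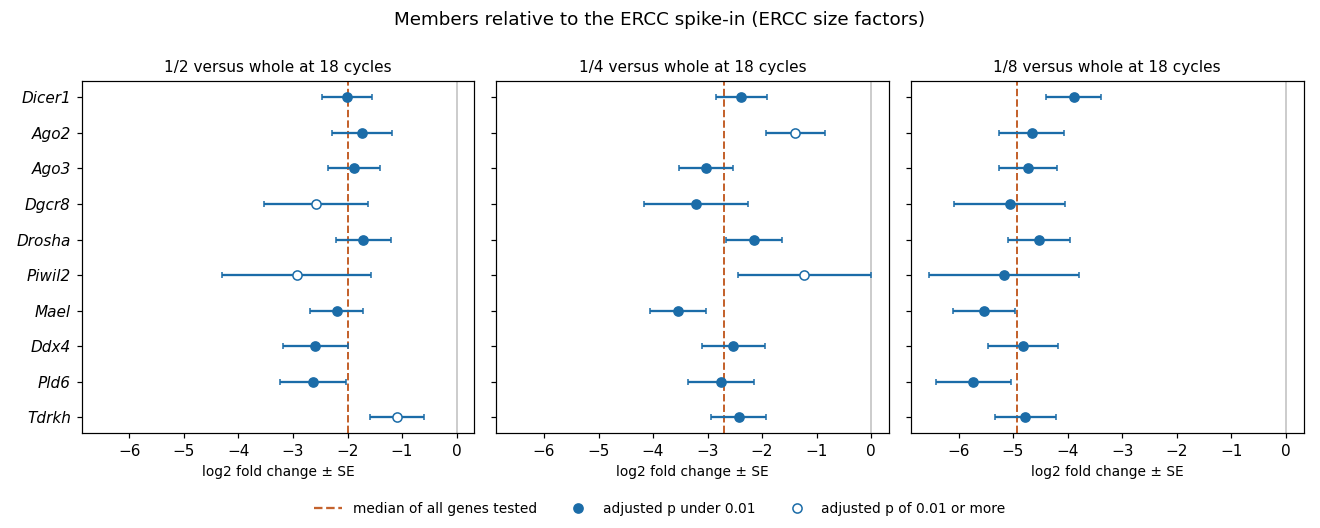
Log2 fold change of each member (x axis, points with SE bars) against whole oocytes at 18 cycles on the ERCC scale, for the 1/2, 1/4 and 1/8 fractions, with a dashed line at the median of all genes tested. The points run from -2.93 to -1.09 for the 1/2 fractions, around a line at -2.00, and from -5.73 (Pld6) to -3.89 (Dicer1) for the 1/8 fractions, around a line at -4.92.

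Of 14 other genes of the small RNA machinery, all of them tested across cycles, 2 were called higher relative to the other genes from 10 to 18 cycles (12.3% of all genes), Tarbp2 (1.28, SE 0.21), which partners Dicer1, and Tsnax (0.79, SE 0.19). From 14 to 18 cycles 2 were called higher (12.5%), Tarbp2 (1.04, SE 0.21) and the helicase Ddx17 (1.08, SE 0.25), and in both comparisons 0 were called lower. The list's medians were 0.23 and 0.37. In each other comparison on this scale edgeR called 0 of its genes (0% to 15.7% of all genes). Up to 4 had an unadjusted p under 0.05 (513 to 5804 of all genes), and DESeq2 called up to 1 (2 to 2838 of all genes). On the ERCC scale edgeR called 10 of 14 higher from 10 to 18 cycles (47.6% of all genes), and 10, 11 and 12 of 13 lower in the 1/2, 1/4 and 1/8 fractions than in whole oocytes at 18 cycles (52.0%, 69.7% and 87.5%). Ddx5 (36.5 ± 7.45 CPM per kb) and Tsnax (35.1 ± 6.37) were the most abundant in the mean over all libraries, and Ago1 and Ago4 had means under 1 CPM. Ddx5 and Ddx17 share exon sequence with other genes, so their counts are uncertain.

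A list drawn up for the piRNA machinery held 21 other genes, of which 20 were tested. Being on the list, as Tdrd3 was, does not show a part in the pathway, which was not tested. Relative to the other genes 4 were called lower at 18 than at 10 cycles (10.8% of all genes): Tex15 (-2.65, SE 0.27), Rnf17 (-1.93, SE 0.25), Asz1 (-1.37, SE 0.22) and Tdrd3 (-1.28, SE 0.24). Tdrd5, a Tudor protein, was higher (1.44, SE 0.20; 12.3% of all genes). From 14 to 18 cycles the lower genes (10.7% of all) were again Tex15 (-2.51), Rnf17 (-1.59), Asz1 (-1.35) and Tdrd3 (-1.34), and Tdrd5 (1.43) and the piRNA methyltransferase Henmt1 (1.05) were higher (12.5%). The list's medians were -0.35 and -0.33. In the 1/8 fractions, relative to the other genes, Rnf17 (1.77, SE 0.32), Tex15 (1.75, SE 0.33), Tdrd3 (1.62, SE 0.34) and Asz1 (1.39, SE 0.33) were higher than in whole oocytes at 18 cycles (7.06% of all genes), the group that these comparisons share. The list's median there was 0.14. On the ERCC scale edgeR called 0 of 20 lower and 13 higher from 10 to 18 cycles, and 0 lower and 12 higher from 14 to 18 cycles (47.6% and 47.9% of all genes called). The changes of these 4 genes from 10 to 18 cycles were then -0.47 for Tex15, 0.27 for Rnf17, 0.88 for Asz1 and 1.02 for Tdrd3, all below the median of all genes at 1.96. In the 1/8 fractions edgeR called 19 of 20 lower on this scale than in whole oocytes at 18 cycles, and 0 higher (87.5% of all genes lower, list median -4.84). Gtsf1 (232 ± 49.3 CPM per kb) and Tdrd5 (98.1 ± 50.9) were the most abundant in the mean over all libraries, though Tdrd5 was below Tdrd1 and Tdrd12 in the means at 10 and 14 cycles and in the 1/8 fractions, while Piwil4 and Tdrd6 had means under 1 CPM. The counts of Tdrd5 and Henmt1, which share exon sequence with other genes, are uncertain.

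Also followed were 4 genes known as matches of endo-siRNAs that come from pseudogenes, with a list median of -0.33 from 10 to 18 cycles. Kif4, a kinesin, was lower at 18 than at 10 cycles relative to the other genes (-0.95, SE 0.22, adjusted p = 0.00638 in edgeR's test), beside 10.8% of all genes. It had 417 and 489 CPM at 10 cycles and 235 and 158 at 18 cycles, and on the ERCC scale its change was 1.33. Rangap1, Ppp4r1 and Pdzd11 were called by edgeR in 0 comparisons relative to the other genes. DESeq2 called 1 gene of the list from 10 to 18 cycles (29.4% of all genes) and 0 in the others (2 to 5155 genes). At an unadjusted p under 0.05 there were 0 to 2 genes of the list in each comparison, beside 513 to 8161 of all genes. On the ERCC scale edgeR called all 4 lower in the 1/2, 1/4 and 1/8 fractions than in whole oocytes at 18 cycles, beside 52.0%, 69.7% and 87.5% of all genes. It called 3 of 4 higher on that scale from 10 to 18 cycles and all 4 from 14 to 18 cycles, beside 47.6% and 47.9% of all genes called. Pdzd11 (84.1 ± 15.5 CPM per kb) and Kif4 (57.1 ± 16.8) were the most abundant of them in the mean over all libraries. These 2 genes share exon sequence on opposite strands, and Rangap1 shares some with another gene, so these counts are uncertain.

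Across all genes the changes from 10 to 18 cycles moved with base composition, and those from 10 to 14 cycles did so by little, with medians of -0.01 to 0.02 over 5 groups of genes by GC content. In the 3503 genes of lowest GC content (28.1% to 43.6%) the median change from 10 to 18 cycles was -1.06, and in the 3503 of highest (54.9% to 82.9%) it was 0.83. For 1/8 fractions against whole oocytes at 18 cycles the medians at the ends were 0.68 and -0.97. Dicer1 has a GC content of 47.3% in its longest transcript, at the border of 2 groups of genes with medians of -0.75 and -0.41, and its change of -1.51 lay below both. Mael, at 44.9%, belongs to a group with a median of -0.75 and changed by 1.27, while Pld6, at 55.6%, was in the group of highest GC content. The part of base composition in the changes of the members was not tested.

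Among 8329 genes with at least 10 counts in every library, those whose pattern over the 12 libraries was most like that of Dicer1 were Sfmbt1, Atp2c1 and Fgd6. Their root mean square differences from it, in centred log2(CPM + 1), were 0.118, 0.122 and 0.133, beside a median of 0.796 over all those genes. For Ddx4 the nearest were Gpr155 (0.256) and Marf1 (0.263), beside a median of 0.766.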

How the data were processed

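The deposited values are whole-number read counts per Ensembl gene, which the authors made for each library. The submitters' processing notes name cutadapt 2.5, STAR 2.7.2a, SAMtools 1.9 and HTSeq 0.9.1 and the build mm10. Rows for reads on no feature (6.9% to 10.8% of a library) and ambiguous reads (2.64% to 4.53%) were left out of library sizes and tests. CPM was computed over gene counts, and divided by exon length from GENCODE for levels per kb. Genes counted 5 times or more in 2 or more libraries were tested with edgeR 4.0.16 (glmQLFit and glmQLFTest, R 4.3.3, Benjamini-Hochberg), with median-ratio size factors over genes or over ERCC molecules. The 6 whole oocytes were fitted together, and so were the 8 libraries at 18 cycles; 1/8 fractions against 10 cycles used all 12 libraries. The SE given with an edgeR change is its absolute size divided by the square root of the test's F statistic, since that test returns no SE. DESeq2 1.42.0 was an alternative. The fits were tested on simulated data in which 200 genes changed by 2 on the log2 scale. These were drawn from genes with at least 20 expected counts in the smallest library. Recovery at lower counts, as for Dgcr8 and Piwil2, was not tested. At the dispersions estimated from the data, 184 were recovered for 18 versus 10 cycles (16795 genes tested, 8 unchanged genes called) and 165 for 1/8 versus whole oocytes at 18 cycles (14213 tested, 1 called). At a flat dispersion of 0.15 it was 12 (16927 tested) and 20 (14255 tested), with 0 unchanged genes called. That value lay above the median dispersions estimated from the data, 0.075 and 0.097. Changed genes were missed at either setting, so a gene that is not called may have changed. The members and lists were chosen with earlier results of these data known. Genes named from the lists were those called, up to 4 a list and direction by size of change, and the 2 most abundant per kb.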

Additional observations from a re-analysis of the deposited data

How the results depend on the processing

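Other settings moved the counts of members called as follows, and the cause was not tested except where named. From 10 to 18 cycles the 2 calls became 8 with ERCC size factors (47.6% of all genes), and 0 to 2 with 1 library left out (0 without replicate 2 at 10 cycles). From 14 to 18 cycles the 2 calls became 5 without a filter (18.8% of genes), 6 with ERCC size factors (47.9%), and 0 to 3 with 1 library left out (0 without replicate 1 or 2 at 14 cycles). A lone library is assumed to vary like the other groups. With ERCC size factors 7, 8 and 10 members were called in the 1/2, 1/4 and 1/8 fractions against whole oocytes at 18 cycles (52.0%, 69.7% and 87.5% of genes), 8 in 1/8 versus 1/2 (71.8%) and 10 in 1/8 versus whole oocytes at 10 cycles (74.3%). Ago2 alone gave 1 call in the 1/4 fractions with DESeq2 (1.63%). Dicer1 alone gave 1 call in the 1/8 fractions against whole oocytes at 18 cycles and 1 in 1/8 versus 1/2, each with DESeq2, without a filter, with a minimum of 10 counts in all libraries (8 members tested), the replicate block, all 12 libraries or a threshold of 0.05, and the first with TMM too (11.6% to 27.7% and 5.52% to 14.6% of genes). The labels' numbers name replicates and do not say which fractions share an oocyte. Same-numbered deviations had correlations over genes between -0.15 and 0.24, and between -0.09 and 0.07 among the fractions. The replicate block gave 3 calls from 10 to 18 cycles, 3 from 14 to 18 cycles (25.0% of genes in each) and 1 for each comparison of the 1/8 fractions just named. When replicate numbers at 14 cycles were swapped, a setting chosen after seeing the data, the block gave 0, 3 and 4 calls for 14 versus 10, 18 versus 10 and 18 versus 14 cycles (0.0114%, 28.1% and 28.5%). The ERCC medians of the members ranged from -2.39 to -1.33, -3.00 to -1.97 and -5.24 to -4.17 for 1/2, 1/4 and 1/8 with 1 library left out, and were 0.10, -0.50 and -2.73 with whole oocytes at 10 cycles as the reference. Signs of single members turned with ERCC size factors, which move all genes together. Besides 8 turns of changes called on neither scale, these were, from 10 to 18 cycles, Dicer1 (0.64), Ago2 (1.57), Ago3 (2.08), Drosha (1.88), Ddx4 (2.15) and Tdrkh (2.10), and from 14 to 18 cycles Dicer1 (0.86), Drosha (2.04) and Tdrkh (1.96). In the 1/2 fractions they were Ago2 (-1.74), Ago3 (-1.88) and Drosha (-1.71), and in the 1/4 fractions Dicer1 (-2.38), Drosha (-2.15), Ddx4 (-2.53), Pld6 (-2.75) and Tdrkh (-2.43). In the 1/8 fractions they were Dicer1 (-3.89), Ago2 (-4.66), Ago3 (-4.72), Drosha (-4.52), Ddx4 (-4.82) and Tdrkh (-4.78), and against the 1/2 fractions Dicer1 (-1.88), Ago2 (-2.91), Ago3 (-2.83), Drosha (-2.81) and Ddx4 (-2.23). Against whole oocytes at 10 cycles they were Ago3 (-2.71), Dgcr8 (-2.38), Drosha (-2.71), Mael (-2.13), Ddx4 (-2.76), Pld6 (-1.95) and Tdrkh (-2.74). With other settings 7 further changes of sign were seen, all for changes that were called under neither setting. Leaving mitochondrial genes out of the CPM moved 0 of 10 levels per kb by more than their SD over the libraries, and the longest transcript moved 3. Depth limits Dgcr8 (7 to 40 counts a library) and Piwil2 (0 to 145), and 2 libraries a group from 1 female limit every test.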
